A study of Cricetulus griseus with 8 samples.

Results

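The 5 genes described here center on the glucose-sensing MondoA pathway. They are the transcription factor genes Mlxip, which encodes MondoA, and Mlx, the alpha-arrestin genes Txnip and Arrdc4, and a further alpha-arrestin gene grouped with them, Arrdc3. They were picked by symbol, and all 5 were listed among the 26776 named genes of the deposited table. RNA was sequenced from LR73, a Chinese hamster line that the labels call fibroblast and that serves as a phagocyte, in 4 libraries of phagocytes alone and 4 libraries of phagocytes kept together with apoptotic Jurkat cells, a human T cell lymphoma line. All cultures grew in alpha-MEM with 10% FBS and 1% PSQ. The Jurkat cells received UV C at 1500 mJ and were cultured for 4 h before they met the phagocytes. The length of the co-culture is not given in the labels. Each group has 4 biological replicates by the series design, but no source says how the cultures were kept separate, so p-values measure the spread between these libraries, which may be technical.

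MondoA and its partner Mlx form a dimer that rests at the outer membrane of mitochondria and enters the nucleus when glucose 6-phosphate and related sugar phosphates accumulate in the cell. In the nucleus the dimer binds carbohydrate response elements, and Txnip and Arrdc4 are its best known direct targets. Both encode alpha-arrestins, adaptor proteins that bring membrane proteins to ubiquitin ligases for internalisation. TXNIP binds thioredoxin and promotes the removal of glucose transporters from the cell surface, and ARRDC4 also restrains glucose uptake. ARRDC3 is a relative best known for its action on the beta2-adrenergic receptor and on integrin beta 4. The series title concerns glucose uptake and lactate release, and the comparison asks how transcripts of a pathway that senses glucose and limits its uptake differ when phagocytes meet apoptotic cells.

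The libraries held 22.7 M to 29.7 M reads in named genes. Alone library 1 stood away from its group, at -25.1 on the leading principal component (36.8% of the variance). The other alone libraries lay between -9.13 and -5.65. Many results are therefore given with and without alone library 1. Of 10 fibroblast markers, Vim, Fn1, Pdgfra, Pdgfrb, S100a4 and Col3a1 had a mean of at least 10 normalized counts, whereas Thy1 was at 0 and Col1a1, Col1a2 and Lox had 4, 10 and 1 reads over all libraries. Among 6 epithelial markers, Cdh1 stood at 242 normalized counts alone and 206 in co-culture, and the others had between 0 and 4 reads in all. Of 7 myeloid markers 4 were listed, with 13.7 to 26.7 normalized counts summed per library. The 15 T cell markers summed to 817 to 947 normalized counts per library alone and 693 to 759 in co-culture, nearly all of it from Themis, Lat, Cd28 and Cd27. The other 11, each with 5 or fewer reads over the alone libraries, came together to 5 reads alone and 35 in co-culture, or 0 to 5.07 and 6.59 to 11.9 normalized counts per library, and 6 of the 11 had more reads in co-culture and 1 fewer. Reads went from 0 to 2 for Cd3e, 0 to 9 for Lck, 0 to 5 for Zap70, 1 to 4 for Cd247 and 3 to 14 for Ptprc, while Cd3d, Cd3g and Cd2 were at 0 throughout. These 11 were picked for few reads alone, a choice that by itself favours more reads in co-culture, and the difference was not tested. The same choice gave 2 reads alone and 3 in co-culture for fibroblast markers, 6 and 7 for myeloid and 3 and 4 for epithelial ones.

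With apoptotic cells, Txnip rose by 21.7%, Arrdc3 by 24.6% and Mlx by 12.9%, while Mlxip did not pass the test and Arrdc4 had no read in any library. A gene was called when its Benjamini-Hochberg adjusted p from limma, over the 13494 genes whose mean reached 10 normalized counts, was under 0.05. A normalized count is a read count divided by the size factor of its library. Of the 5 members, 4 met that filter and 3 of these were called higher, where 6.36% of all tested genes were called higher. In the same 3 genes every co-culture library lay above every alone library, which held for 11.4% of all tested genes in this direction. An exact two-sided permutation test on the log2 values gave p = 0.0286 for each of Txnip, Arrdc3 and Mlx, the smallest p that 4 libraries against 4 can give. Any gene whose groups do not overlap gets this p, which held for 21.2% of all tested genes in either direction. It therefore adds nothing to the separation of the groups. The median log2 fold change of all tested genes was 0.0015. In the authors' deposited table, whose fold changes are drawn towards 0, the adjusted p was 0.000928 for Txnip, 0.00507 for Arrdc3, 0.0133 for Mlx and 0.312 for Mlxip, and none was given for Arrdc4.

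**Figure D1:**
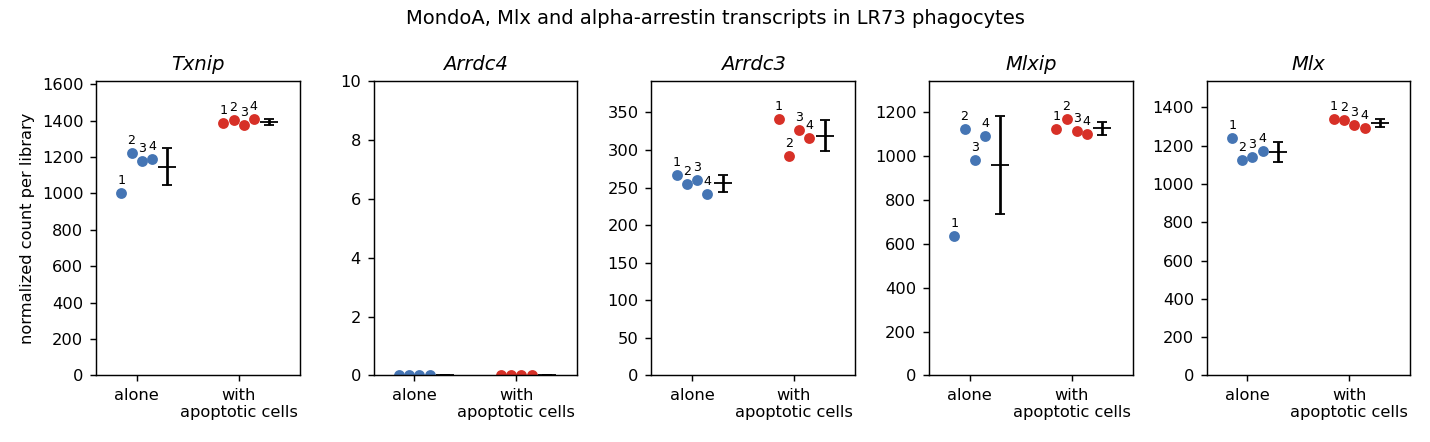
Normalized counts per library (points, with replicate numbers) of the 5 members in phagocytes alone and with apoptotic cells, each axis starting at 0, with the mean and SD of 4 libraries in black. Txnip, Arrdc3 and Mlx do not overlap between the groups, Mlxip is lowest in alone library 1 (636 normalized counts), and Arrdc4 is at 0 in all 8 libraries.

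Txnip encodes the thioredoxin-interacting protein. In phagocytes alone its normalized counts were 1002, 1225, 1177 and 1188 in libraries 1 to 4, and in co-culture they were 1385, 1402, 1377 and 1407. The co-cultures lay close together, above all alone libraries, and alone library 1 was the lowest of the 8. The mean went from 1148 ± 99.6 to 1393 ± 14.1 normalized counts (SD, n = 4 each), which on the log2 scale is a change of 0.28 (SE 0.06, 95% interval 0.15 to 0.41, limma adjusted p = 0.0129). In RPM, reads scaled to the library total, these were 40.2 to 49.5 alone and 54.8 to 55.9 in co-culture, so the groups were separate without the authors' size factors as well. The rise was larger than that of 94.3% of tested genes, and by p-value Txnip stood at position 681. Alone library 1 lay 0.26 below the mean of the other alone libraries on the log2 scale, and 18.5% of tested genes lay further below theirs. Without that library the alone mean was 1197 ± 24.8 normalized counts and the log2 fold change 0.22 (limma adjusted p = 3.85e-05), in a fit that called 13.4% of genes higher. The call held with each of the other 7 libraries left out in turn, with log2 fold changes of 0.28 to 0.32 and adjusted p-values up to 0.0454. The difference between the group means was 245 normalized counts. The 11 T cell markers at trace level summed to at most 11.9 normalized counts per co-culture library, a sum that does not measure human reads under Txnip. Whether human reads were counted under the hamster gene was not tested.

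Arrdc4, the other established MondoA target of the set, was listed at 0 in all 8 libraries. A count of 0 allows up to 3 reads per library, equal to 2.50 to 3.32 normalized counts or 0.101 to 0.132 RPM, a limit that covers counting error only. The table had 6857 named genes without reads in all, and among 37 proteasome subunit genes, which nearly every cell uses, 1 had no reads: Psmb11, the subunit of the thymus proteasome, named after its value was seen. The symbol Arrdc4 is present in the RefSeq table for the species. Whether the gene model used by the authors captures its transcript was not tested. No fold change can be given, and these data do not measure the response of Arrdc4 to apoptotic cells.

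Arrdc3 had the fewest reads of the 4 members with any, with 233 to 345 reads per library. Its normalized counts alone were 267, 254, 260 and 241 in libraries 1 to 4, and in co-culture 341, 292, 326 and 316. The lowest co-culture library lay 25.1 normalized counts above the highest alone library, and alone library 1 was the highest of its group, not the lowest as for Txnip. The mean went from 255 ± 10.9 to 319 ± 20.6 normalized counts (SD, n = 4 each), which on the log2 scale is a change of 0.32 (SE 0.07, 95% interval 0.17 to 0.46, limma adjusted p = 0.0121). Its rise exceeded that of 95.7% of tested genes. The value was 0.34 without alone library 1 (limma adjusted p = 0.000774), in a fit that called 13.4% of all genes higher. Over all 8 left-out libraries it ran from 0.28 to 0.36 with adjusted p-values up to 0.0482. The spread of Arrdc3 between libraries, a coefficient of variation of 4.28% alone and 6.45% in co-culture, was close to the 6.10% and 5.70% that counting this number of reads gives by itself.

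Mlxip encodes MondoA, the subunit that senses sugar phosphates. Its normalized counts alone were 636, 1124, 980 and 1092, and in co-culture 1124, 1167, 1116 and 1099. Apart from alone library 1, which stood far below the rest, the groups lay close together, and alone library 2 was above 2 of the 4 co-cultures. The mean went from 958 ± 223 to 1126 ± 28.9 normalized counts (SD, n = 4 each), which on the log2 scale is a change of 0.27 (SE 0.15, 95% interval -0.06 to 0.59) that did not pass the test (limma adjusted p = 0.279, exact two-sided permutation p = 0.114). Alone library 1 lay 0.74 below its group on the log2 scale, and 2.20% of tested genes lay further below theirs in that library. Without it the log2 fold change was 0.08 (limma adjusted p = 0.181). The interval with all libraries still includes a rise as large as that of Txnip as well as no change.

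Mlx encodes the partner that MondoA needs to bind DNA, a partner it shares with ChREBP and with some proteins of the MAD family. Its normalized counts alone were 1242, 1123, 1140 and 1171, and in co-culture 1337, 1336, 1307 and 1294. Here alone library 1 was the highest of its group, 0.12 above the others on the log2 scale, and still 52.5 normalized counts below the lowest co-culture library. The mean went from 1169 ± 52.6 to 1319 ± 21.3 normalized counts (SD, n = 4 each), which on the log2 scale is a change of 0.17 (SE 0.04, 95% interval 0.08 to 0.27, limma adjusted p = 0.0229). The direction held with each library left out, but the call did not. After removal of alone library 2, 3 or 4 or of a co-culture library, whichever it was, the limma adjusted p was 0.0536 to 0.0768. Those fits called 3.08 to 5.45% of all genes higher, against 6.36% with all libraries. Without alone library 1 the limma adjusted p was 0.000121 with a log2 fold change of 0.20, in a fit that called 13.4% of all genes higher. Mlxipl, which encodes ChREBP, the relative of MondoA found mainly in liver and fat, had means of 5.62 and 5.67 normalized counts and was too low to be tested.

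**Figure D2:**
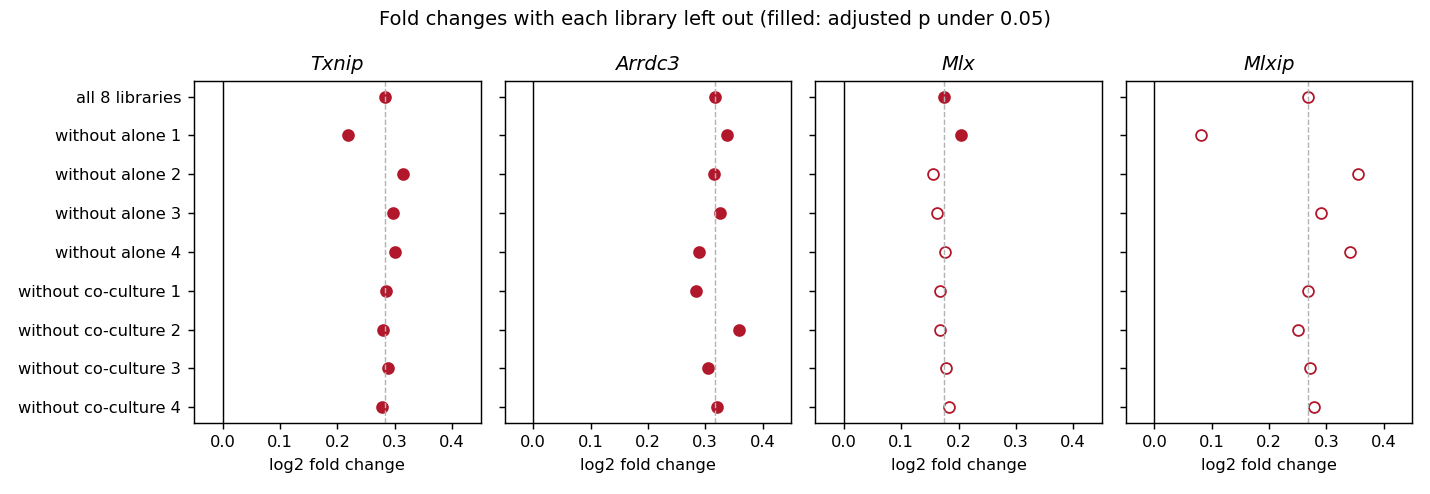
Log2 fold change (with apoptotic cells against alone, limma) of the 4 tested members from all 8 libraries and after leaving out each in turn, where filled points have an adjusted p under 0.05 and the dashed line marks the value with all libraries. Txnip and Arrdc3 stay filled throughout, Mlx is filled only with all libraries and without alone library 1, and Mlxip falls from 0.27 to 0.08 without alone library 1.

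The rise of Mlx was smaller in value than those of Txnip and Arrdc3, and no test of a difference between members' changes passed. The log2 ratio of each pair of tested members was compared between the groups by an exact two-sided permutation test, for 6 pairs, where a single pair at the smallest possible p would not pass after adjustment. The difference between the changes was -0.03 for Txnip against Arrdc3 (95% interval -0.29 to 0.22, exact p = 0.771), 0.11 for Txnip against Mlx (-0.13 to 0.35, exact p = 0.343) and 0.02 for Txnip against Mlxip (-0.30 to 0.33, exact p = 0.914). It was 0.14 for Arrdc3 against Mlx (-0.01 to 0.29, exact p = 0.0857), with adjusted p = 0.514 over the 6 pairs by the exact permutation test. The intervals come from the pooled spread of the libraries, and for Arrdc3 and Mlx the interval includes differences as large as the rise of Txnip itself. The ratio of Mlxip to Mlx was the most uneven: in phagocytes alone its log2 value ran from -0.96, in library 1, to 0.0011, and in co-culture from -0.25 to -0.20.

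Txnip, Mlx and Mlxip varied less between co-culture libraries than between alone libraries, while Arrdc3 varied more (coefficient of variation 4.28% alone and 6.45% in co-culture). These differences were not tested or compared with those of all genes. The coefficient of variation of Txnip was 8.67% alone and 1.02% in co-culture, where counting error by itself would give 2.88% and 2.73%. For Mlx it was 4.50% and 1.62%, against 2.85% and 2.81% from counting, and for Mlxip 23.3% and 2.56%, against 3.15% and 3.04%. Without alone library 1 the SD in phagocytes alone was 24.8 normalized counts for Txnip, 24.2 for Mlx and 75.4 for Mlxip. The co-cultures had 14.1, 21.3 and 28.9, so for Mlx little of the difference remained without that library.

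The genes whose pattern was most like that of Txnip were sought among 8940 genes whose mean reached 100 normalized counts and whose symbol is not a placeholder, by the root mean square difference of log2 values, each centred on its gene's mean, over the 8 libraries. The closest was Ogdh, which encodes an enzyme of the TCA cycle, at 0.024, followed by the secreted glycoprotein gene Fstl1 (0.026), the endoplasmic reticulum oxidase gene Ero1l (0.030), Ralgds, an exchange factor for Ral GTPases (0.031), and the formin gene Fmnl2 (0.031), where the median over all candidates was 0.18. All 5 were low in alone library 1, between -0.35 and -0.31 against -0.33 for Txnip, so the library that stands apart is 1 of the points they share. Their log2 fold changes were 0.27, 0.25, 0.28, 0.31 and 0.25, and without alone library 1 they were 0.21, 0.18, 0.21, 0.26 and 0.18. Each was called by limma with all libraries. The search included the difference between the groups, so rises near that of Txnip, and the calls, follow from the choice of these genes. Fstl1, Ero1l and Fmnl2 lost the call when certain single libraries were left out (adjusted p = 0.0520 to 0.0752). The other members were not among the closest: Arrdc3 came at position 1816 with 0.13, Mlx at 1980 with 0.13 and Mlxip at 3287 with 0.16. Arrdc4, without reads, has no pattern.

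**Figure D3:**
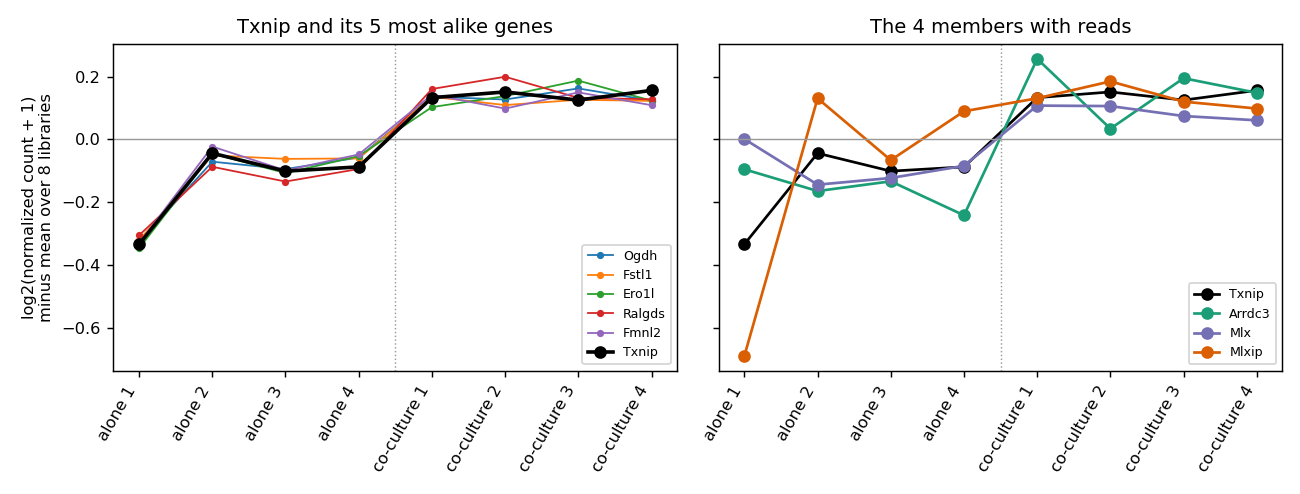
Log2(normalized count + 1) minus each gene's mean over the 8 libraries, for Txnip with its 5 most alike genes (left) and for the 4 members with reads (right), where lines only join the libraries of a gene and the dotted line parts the groups. Txnip and its 5 neighbours lie near -0.33 in alone library 1 and above 0 in every co-culture, whereas Arrdc3 and Mlx are not low in alone library 1.

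Around the members, 4 genes that bring glucose into the cell or handle glucose 6-phosphate rose. Of 11 tested genes of glucose entry and glucose 6-phosphate, 4 rose and 7 did not pass by limma, where 6.36% of all tested genes were called higher, with a list median of 0.15 on the log2 scale. Slc2a1, the glucose transporter GLUT1 that TXNIP acts on, was at 1585 to 1817 normalized counts alone and 2494 to 2642 in co-culture. Its change of 0.61 on the log2 scale (SE 0.05 and limma adjusted p = 3.68e-05) was larger than that of any tested member, a difference that was not itself tested. The hexokinase genes Hk2 and Hk1, whose products make glucose 6-phosphate, rose by 0.32 (SE 0.04) and 0.19 (SE 0.03). The 4th was Pgm1, a phosphoglucomutase gene named after its values were seen, with 0.15 (SE 0.03). The glucose transporter gene Slc2a8, also named after its values were seen, lay lower in co-culture, with no overlap between the groups. It was at 336 to 359 normalized counts alone and 256 to 335 in co-culture. Its log2 fold change of -0.21 (SE 0.08) did not pass (limma adjusted p = 0.136). The list median depended on 2 genes near the filter, Slc2a4 and Hk3, also named after their values were seen, and was 0.047 for the 9 genes whose mean reached 100 normalized counts. With single libraries left out it was 0.025 without alone library 3, 0.039 without co-culture library 4, 0.091 without alone library 2, 0.098 without alone library 1 and up to 0.16 otherwise. Without co-culture library 1 the count was 3, as Pgm1 had an adjusted p of 0.0529 by limma.

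Of 8 tested genes reported elsewhere as targets of MondoA or ChREBP, other than the members, 3 rose and 5 did not pass, where 6.36% of all tested genes were called higher, and the list median was 0.11 on the log2 scale. Hk2 is one of the 3. Klf10, a transcription factor gene that responds to glucose, was at 830, 1045, 1027 and 1012 normalized counts alone and 1136 to 1208 in co-culture, a change of 0.26 on the log2 scale (SE 0.07 and limma adjusted p = 0.0367). Alone library 1 was the low one here too, as for Txnip. Without it the Klf10 change was 0.18 (limma adjusted p = 0.000813), in a fit that called 13.4% of all genes higher. Pfkfb3, which encodes an enzyme that makes the glycolysis activator fructose 2,6-bisphosphate, went from 2148 ± 125 to 2444 ± 64.8 normalized counts (SD, n = 4 each), a rise of 0.19 (SE 0.05, limma adjusted p = 0.0249). Without alone library 1 the Pfkfb3 rise was 0.15. The count of 3 became 1 without alone library 3 or co-culture library 1, 2 or 3 and 2 without alone library 4 or co-culture library 4, in fits that called 3.08 to 4.58% of all genes higher, since Klf10 (adjusted p = 0.0593 to 0.107) lost its call in all of these and Pfkfb3 (adjusted p = 0.0673 to 0.0850) in those that left 1. The lipogenic targets Fasn and Acaca, named after their values were seen, stood at 0.08 each on the log2 scale, with SEs of 0.10, did not pass, and were at -0.04 each without alone library 1. The list median was 0.067 without co-culture library 2.

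Thioredoxin is the protein that TXNIP binds, and part of its system was lower. Of 10 tested genes, 3 fell and 7 did not pass by limma, with a list median of -0.07 on the log2 scale, where 5.31% of all tested genes were called lower. Txnrd2, the mitochondrial thioredoxin reductase gene, fell from 718 ± 61.5 to 542 ± 13.7 normalized counts (SD, n = 4 each), which on the log2 scale is a change of -0.40 (SE 0.06, limma adjusted p = 0.00297). It was at 640 to 789 normalized counts alone and 527 to 555 in co-culture, with a gap between the groups. Txnrd1, the cytosolic reductase gene, fell by 0.14 (SE 0.03, limma adjusted p = 0.0154) and Srxn1, which encodes sulfiredoxin, by 0.12 (SE 0.03, limma adjusted p = 0.0351) on the log2 scale. The count of 3 became 1 on removal of alone library 3 or of co-culture library 1, 3 or 4. There Txnrd1 (adjusted p = 0.0512 to 0.0563) and Srxn1 (adjusted p = 0.0626 to 0.108) did not pass, in fits that called 2.64 to 3.07% of all genes lower. Leaving out co-culture library 2, alone library 2 or alone library 4 gave a count of 2, as Srxn1 lost its call (limma adjusted p = 0.0661 to 0.112). Among the left-out fits, the Srxn1 call held only without alone library 1 (limma adjusted p = 0.000447). The list median was -0.02 without alone library 1 and -0.10 without alone library 2. Without alone library 1, 3 genes were called lower and 1 higher, in a fit that called 12.5% of all genes lower and 13.4% higher. The higher gene was Prdx3, named after its values were seen, at 0.09 on the log2 scale (limma adjusted p = 0.0106). Txn itself, listed under a placeholder symbol that the RefSeq table pairs with this gene, had a log2 fold change of -0.06 (95% interval -0.19 to 0.07), which was 0.0057 without alone library 1.

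None of the other arrestin genes was called. Of 4 tested, 1 had an unadjusted p under 0.05 by limma and 1 by edgeR's quasi-likelihood test, 0 by DESeq2, and neither count test called any after adjustment, where limma called 11.7%, edgeR 11.6% and DESeq2 11.8% of all tested genes. Arrdc1 was at 427 to 483 normalized counts alone and 380 to 440 in co-culture, a log2 fold change of -0.15 (95% interval -0.29 to -0.01, limma adjusted p = 0.166). Arrdc2 was at 154 to 171 and 166 to 195 normalized counts, with 0.16 (95% interval -0.0028 to 0.33, limma adjusted p = 0.195). The arrestin list had a median of -0.01, or -0.07 without alone library 1. Among the 6 tested ubiquitin ligases of the NEDD4 type, which alpha-arrestins recruit, Smurf2 rose by 0.16 (SE 0.04, limma adjusted p = 0.0437), and the list median was 0.09. The Smurf2 call was lost on removal of alone library 2 or 3 or of a co-culture library, whichever it was (adjusted p = 0.0725 to 0.128). Those fits called 3.08 to 5.45% of all genes higher. Without alone library 1 the median was 0.044 and Smurf2 was at 0.12. Smurf1, named after its values were seen, was then called lower at -0.17 (limma adjusted p = 4.78e-05). That fit called 12.5% of all genes lower. Itch, the ligase that ubiquitinates TXNIP, had a log2 fold change of 0.03 (95% interval -0.11 to 0.17), which turned to -0.04 without alone library 1.

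Mlx and Max are the hubs of a network of related transcription factors, of which 8 genes besides the members were tested. Mxd4, a MAD family repressor that pairs with Max and Mlx, fell from 720, 740, 730 and 755 normalized counts in the alone libraries to 581, 584, 580 and 567 in the co-cultures. The groups were far apart, with a change of -0.35 on the log2 scale (SE 0.04 and limma adjusted p = 0.000533), and the call held with every library left out. It was the only 1 of the 8 that passed by limma with all libraries, where 5.31% of all tested genes were called lower. The list median was 0.02. Without alone library 1 the median was 0.0044 and 2 passed, both lower, in a fit that called 12.5% of all genes lower. The other was the repressor gene Mnt, named after its values were seen, at -0.14 (limma adjusted p = 0.00952). Max stood at 1429 ± 68.9 and 1425 ± 11.2 normalized counts (SD, n = 4 each), which on the log2 scale is a change of -0.0031 (95% interval -0.09 to 0.09) whose sign turned without alone library 1 (0.03), alone library 3 (0.0023) or co-culture library 3 (0.00085).

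**Figure D4:**
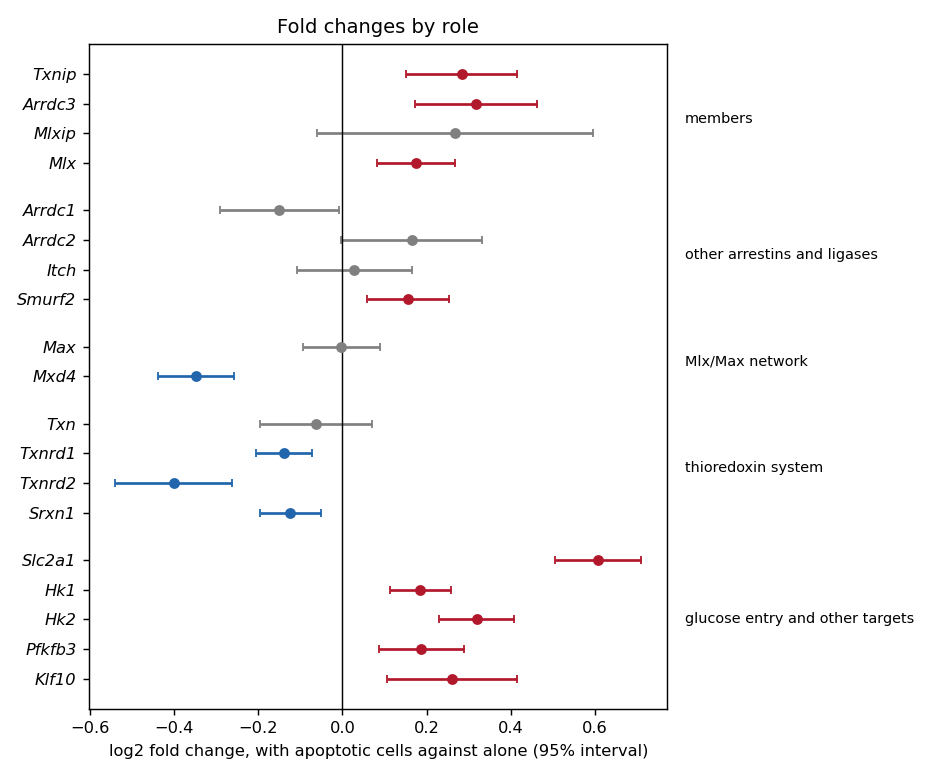
Log2 fold change with its 95% interval (limma, with apoptotic cells against alone, n = 4 per group) of the 4 tested members and of named genes around them, where red marks genes called higher, blue genes called lower and grey genes not called. Txnip (0.28), Arrdc3 (0.32), Slc2a1 (0.61) and Hk2 (0.32) lie to the right and Mxd4 (-0.35) and Txnrd2 (-0.40) to the left.

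Genes of other known regulators of Txnip and of their targets were examined too, where limma called 6.36% of all tested genes higher and 5.31% lower. None of 5 tested subunit genes of AMPK, the energy-sensing kinase that marks TXNIP for degradation, was called by limma, edgeR or DESeq2, and 0 had an unadjusted p under 0.05 by limma (list median -0.03). Of 14 tested genes in the list of FOXO factors and their targets, Pdk4, which encodes a kinase that inhibits pyruvate dehydrogenase, rose by 0.20 (SE 0.05, limma adjusted p = 0.0302) and 13 did not pass (list median 0.03). The Pdk4 call was lost on removal of alone library 3 or 4 or of a co-culture library, whichever it was (adjusted p up to 0.0909). Those fits called 3.08 to 4.58% of all genes higher. Without alone library 1 Pdk4 was at 0.16, in a fit that called 13.4% of all genes higher and 12.5% lower. The FOXO list then had 2 genes higher and 2 lower, with a median of 0.010. The factor gene Foxo3, named after its values were seen, was 1 of those lower, at -0.23 against 0.03 with all libraries. Of 8 tested genes in the list of the glucocorticoid receptor and its targets, 2 rose and 1 fell (list median 0.06). These were the kinase gene Sgk1 (0.53, SE 0.05), the EGF receptor inhibitor gene Errfi1 (0.33, SE 0.05) and, lower, Tsc22d3, which encodes GILZ (-0.45, SE 0.07, limma adjusted p = 0.0036). Without alone library 1 that list had 4 genes higher and 3 lower and a median of 0.030. The receptor gene Nr3c1, named after its values were seen, was then 1 of those lower, at -0.17, and with all libraries it was at -0.10 and did not pass (limma adjusted p = 0.337). Over all 9 lists, 73 of 97 listed genes were tested, 10 rose and 5 fell, against 6.36% and 5.31% of all tested genes, and without alone library 1 there were 14 and 11 of 72, against 13.4% and 12.5%.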

How the data were processed

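RNA was measured in 8 libraries. The authors deposited 1 table with a signal for each gene and library. These values are read counts scaled by a size factor, as 100% of them gave whole reads within 0.01 reads, and the reads were recovered. The authors' deposited table also gives, per the file headers, p-values, a test score and log2 fold changes with standard errors. The submitters' processing notes name STAR, featureCounts, DESeq2 and FastQC, with no version. Genome build, annotation and strand setting were not given in the sources used here, so no positions are printed, and human reads that resemble hamster transcripts can be counted under hamster genes. A row without a gene name (0.14 to 0.176% of reads) was left out.

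A column belongs to the sample whose replicate number and letters AC it carries, and its prefix GFP is not explained in the labels. The main test was limma-trend (limma 3.58.1, R 4.3.3) on log2(normalized count + 1) for the 13494 genes whose mean reached 10, with group as the only term and Benjamini-Hochberg adjustment. Fold changes on this scale understate those of low genes. edgeR 4.0.16 and DESeq2 1.42.0 on the recovered reads, another scaling, other filters and pseudocounts, array weights, a replicate block and left-out libraries were alternatives. Permutation tests used scipy 1.17.1 and figures matplotlib 3.10.9. The limma step was tested on simulated counts with known changes. Members, lists and tests were chosen with earlier results of these data known. Named genes were the members, the 3 called genes of smallest adjusted p in each list, a fixed set (Mlxipl, Arrdc1, Arrdc2, Max, Itch, Txn, Slc2a1, Hk2, Klf10) and the 5 genes most like Txnip. Genes listed under placeholder symbols (Txn, Txn2 and Myc) were matched through the RefSeq table. The value of 1 T cell marker is not reported here by itself.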

Additional observations from a re-analysis of the deposited data

Results flagged for a closer look

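Single libraries lay far from the others of their group in 4 of 56 groups of 4 examined. Chance picks out about 1 in 20 groups, but Ogdh and Fstl1 were chosen for a pattern like that of Txnip, low alone library 1 included, so the count cannot be read against that share. Klf10 stood at 830 normalized counts in alone library 1 against 1012 to 1045 in the other alone libraries. Ogdh and Fstl1, named for their likeness to Txnip, stood at 3886 and 10677 normalized counts in the same library, against 4564 to 4682 and 12778 to 12877. Sgk1 stood at 519 normalized counts in co-culture library 2 against 543 to 547 in the other co-cultures. Txnip and Mlxip in alone library 1 did not meet it, with gaps of 0.787 and 0.706 of the group's range, below the 95% critical value of this criterion for 4 samples.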

How the results depend on the processing

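The calls of Txnip and Arrdc3, and the lack of one for Mlxip, kept their direction and side of the threshold under all 17 alternatives. Txnip ran from 0.22 to 0.32, Arrdc3 from 0.28 to 0.36 and Mlxip from 0.08 to 0.36 on the log2 scale. Mlx ran from 0.16 to 0.20 over left-out libraries. With the replicate block the Mlx value of 0.17 had an adjusted p of 0.0611. That block left 498 genes called higher and 400 lower over all genes, 6 higher in the lists, and calls lost for Klf10, Pfkfb3, Pdk4, Smurf2 and Srxn1 among named list genes. The deviations showed no pairing by number: same-numbered libraries had deviations correlated by -0.09 to 0.07, and not every library correlated best with its own number. Such weak correlations cannot tell whether same-numbered cultures were set up together. Array weights gave 1804 genes higher and 1674 lower, and 10 lower in the lists. Over left-out libraries, 416 to 1811 genes were higher and 356 to 1694 lower, and the lists held 5 to 14 higher and 3 to 11 lower; the causes were not tested. With no filter, Smurf2 and Srxn1 lost their calls (adjusted p = 0.0558 and 0.0506). With array weights, Max was 0.019 and Itch -0.027. Over left-out libraries Max ran from -0.024 to 0.027, Itch from -0.040 to 0.064 and Txn from -0.10 to 0.0057.

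Differences between members' changes over left-out libraries ran from -0.12 to 0.011 for Txnip against Arrdc3, -0.041 to 0.14 for Txnip against Mlxip, -0.052 to 0.26 for Arrdc3 against Mlxip and -0.12 to 0.20 for Mlxip against Mlx, with changes of sign. With 3 libraries against 4 the smallest exact p is 0.0571, so these refits cannot pass. Arrdc4 gave no value under any alternative. Of the 4 members with reads, Arrdc3 had the fewest, at 233 to 345 per library.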
